A study of Mus musculus with 24 samples.

Results

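Lysosomal enzymes and lysosomal membrane proteins were followed through 35 named mouse genes, matched by symbol in the count table. The matching uses no measured value, but the genes were chosen with earlier results of these data known. Their shares beside all genes tested are therefore descriptive. They comprised 9 cysteine proteases, 3 aspartic or serine proteases, 8 glycosidases, 4 lipid hydrolases or their activators, 2 cholesterol exporters, 7 membrane proteins, progranulin and the transcription factor Tfeb. All 35 were among the 55421 gene identifiers of the count table, and all 35 were among the 14380 genes that passed the filter on low counts.

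The 24 libraries came from left brain hemispheres of mice aged 3 months, all labelled C57BL/6J, in 4 groups of 6, and each library is read here as 1 mouse. Wild type mice and mice labelled Nox2 knockout were injected intraperitoneally on 4 days with 100 µl of either phosphate-buffered saline (PBS) or lipopolysaccharide (LPS) of Salmonella abortus equi, a component of the bacterial outer membrane that activates innate immune cells. Each day's LPS amounted to 1 µg per g of body weight, and the 3′ end of polyadenylated transcripts was sequenced from 100 ng of total RNA. Cybb encodes Nox2, the superoxide-producing core of the phagocyte oxidase, and the design asks how the brain's response to systemic LPS depends on it.

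A lysosome is an acidic, membrane-bound compartment in which hydrolases break down proteins, glycans and lipids that arrive by endocytosis, phagocytosis and autophagy. Most of these hydrolases reach it through the mannose 6-phosphate receptors, a proton pump keeps it acidic, and heavily glycosylated proteins such as LAMP1 and LAMP2 line its membrane. All brain cells have lysosomes, but microglia and other macrophages are especially rich in cathepsins, and inherited loss of many of these enzymes causes storage diseases with neurodegeneration.

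Levels are given as CPM, the counts of a gene per 1e+06 counts of the scaled library total. Libraries held 2340184 to 5256169 counts, and 1 CPM stands for 2.34 to 5.26 counts. Cybb averaged 1.49 ± 0.653 CPM in wild type mice after PBS and 24.7 ± 8.06 CPM after LPS, but 67.8 ± 5.18 and 72.0 ± 4.04 CPM in the libraries labelled knockout (SD, n = 6 each). A 3′ tag outside the disrupted part of a gene does not check a knockout, and each direction below that involves genotype rests on those labels, so these are called knockout-labelled libraries. Markers of neurons, astrocytes and oligodendrocytes were each high in all 24 libraries, with summed levels of 5190 to 6233, 4976 to 5588 and 3919 to 5256 CPM. Replicates 1 and 2 of the wild type mice given LPS had lower summed levels of the 35 genes, of microglial markers and of monocyte markers than each of the other 4 mice of that group, and results that turn on them are given with and without them.

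LPS raised lysosomal transcripts in wild type brain. Of the 35 genes, 22 were higher after LPS and 0 were lower at an adjusted p under 0.05 in edgeR's quasi-likelihood test, against 10.9% higher and 7.12% lower among all genes tested. At an unadjusted p under 0.05, 25 were higher and 0 lower, beside 29.8% of all genes tested in either direction, 1 of the 35 had a log2 fold change below 0, beside 51.8%, and DESeq2 called 21 higher and 0 lower. The median log2 fold change of the 35 was 0.46, beside -0.01 over all genes tested. In 17 of the 35, the lowest mouse given LPS was above the highest mouse given PBS, which held for 5.88% of all genes tested. Together the 35 genes made up 3377 to 3488 CPM in the wild type mice after PBS and 4587 to 5260 CPM after LPS, so their combined share was 1.42-fold higher and the groups did not overlap.

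The same direction was seen in knockout-labelled libraries, where 19 of the 35 were higher and 0 were lower, against 7.05% higher and 3.82% lower among all genes tested (edgeR). At an unadjusted p under 0.05, 22 were higher and 0 lower, beside 21.7% of all genes tested in either direction, 5 of the 35 had a log2 fold change below 0, beside 50.4%, and DESeq2 called 17 higher and 0 lower. Their median log2 fold change was 0.31, and in 17 the groups did not overlap, beside 4.24% of all genes tested. The combined level went from 3436 to 3573 CPM after PBS to 4273 to 4597 CPM after LPS, a ratio of 1.27. Across genotypes, 17 genes were higher in both, beside 5.95% of all genes tested, 5 passed in wild type only (Ctso, Lamp1, Laptm4a, Lipa and Tfeb), 2 in knockout-labelled libraries only (Ctsf and Mcoln1) and 11 in neither. Passing in 1 genotype and not in the other is no test of a difference between them, and that difference is given further on.

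**Figure D1:**
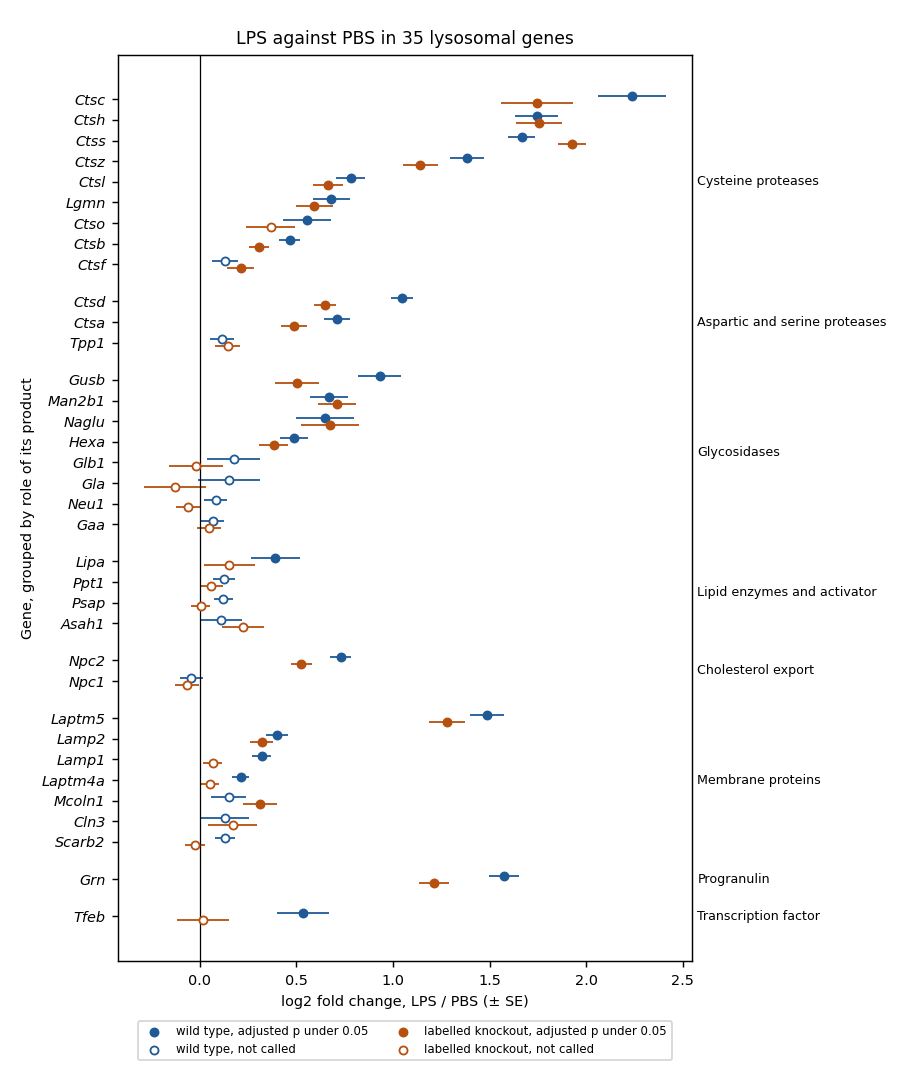
Log2 fold change after LPS against PBS (x axis, ± SE) for each of the 35 genes, ordered by role (y axis), in wild type and in knockout-labelled libraries; filled points have an adjusted p under 0.05. The cysteine proteases Ctsc, Ctsh and Ctss lie farthest to the right in both genotypes, and no filled point lies left of 0.

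RefSeq promoter windows on GRCm38.p6, from 250 bases before to 50 bases after the start site, were found for 31 of the 35, and Asah1, Ctsb, Ctsh and Npc1 had none in the table. Each window was searched on both strands for CACGTG, the palindromic core of the motif bound by Tfeb and its relatives, and for GAGGAAG, a purine-rich motif of the kind bound by the myeloid factor PU.1, and no match of the one overlapped a match of the other in a member window. Shown first are 3 members with large LPS changes and a GAGGAAG match, which reads CTTCCTC on the printed strand and is in capitals: Ctss (chr3:95526536-95526835, plus strand), Ctsc (chr7:88277835-88278134, plus strand) and Laptm5 (chr4:130913066-130913365, plus strand), each printed 5′ to 3′ along its gene and chosen after the values were seen.
Ctss: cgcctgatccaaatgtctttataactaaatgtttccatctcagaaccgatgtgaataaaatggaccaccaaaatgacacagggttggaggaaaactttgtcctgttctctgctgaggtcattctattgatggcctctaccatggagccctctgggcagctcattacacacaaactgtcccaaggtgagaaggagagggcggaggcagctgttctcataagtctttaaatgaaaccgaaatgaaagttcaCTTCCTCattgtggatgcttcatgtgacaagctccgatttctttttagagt
Ctsc: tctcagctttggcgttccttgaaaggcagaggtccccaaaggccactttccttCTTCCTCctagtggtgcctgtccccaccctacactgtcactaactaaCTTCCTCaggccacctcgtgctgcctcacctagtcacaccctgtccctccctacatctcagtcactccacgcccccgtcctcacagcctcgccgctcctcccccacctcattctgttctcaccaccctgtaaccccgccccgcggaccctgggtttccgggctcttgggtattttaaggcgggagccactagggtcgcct
Laptm5: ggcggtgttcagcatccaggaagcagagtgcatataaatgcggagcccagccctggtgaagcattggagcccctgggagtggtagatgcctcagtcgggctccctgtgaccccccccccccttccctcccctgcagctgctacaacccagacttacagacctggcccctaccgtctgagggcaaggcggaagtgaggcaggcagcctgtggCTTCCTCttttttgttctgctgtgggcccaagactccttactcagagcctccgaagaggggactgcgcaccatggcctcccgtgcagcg
The next 3 hold CACGTG, in capitals: Ctsd (chr7:142387778-142388077, minus strand), Lamp1 (chr8:13158911-13159210, plus strand) and Mcoln1 (chr8:3500269-3500568, plus strand). Ctsd rose after LPS in both genotypes but, among mice given LPS, was lower in knockout-labelled libraries than in wild type. Lamp1 was called for LPS in wild type only and Mcoln1 in knockout-labelled libraries only.
Ctsd: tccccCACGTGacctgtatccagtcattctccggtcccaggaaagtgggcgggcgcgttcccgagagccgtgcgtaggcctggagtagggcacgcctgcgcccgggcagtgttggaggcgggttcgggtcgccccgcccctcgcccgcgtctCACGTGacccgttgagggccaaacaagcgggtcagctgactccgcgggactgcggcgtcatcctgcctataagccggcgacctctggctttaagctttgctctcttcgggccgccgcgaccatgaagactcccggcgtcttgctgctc
Lamp1: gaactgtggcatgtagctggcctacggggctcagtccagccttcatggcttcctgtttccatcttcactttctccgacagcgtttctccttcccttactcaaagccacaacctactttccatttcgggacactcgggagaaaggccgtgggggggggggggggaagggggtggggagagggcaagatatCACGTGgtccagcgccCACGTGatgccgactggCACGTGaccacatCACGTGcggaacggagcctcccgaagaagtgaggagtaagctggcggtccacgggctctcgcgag
Mcoln1: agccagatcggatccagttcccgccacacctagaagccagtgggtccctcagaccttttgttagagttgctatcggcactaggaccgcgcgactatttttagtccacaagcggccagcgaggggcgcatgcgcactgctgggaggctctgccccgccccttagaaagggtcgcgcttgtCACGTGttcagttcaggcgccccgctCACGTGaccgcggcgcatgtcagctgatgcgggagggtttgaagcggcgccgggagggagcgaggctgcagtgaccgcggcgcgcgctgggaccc
Ctsd and Mcoln1 each hold 2 copies of CACGTG and Lamp1 holds 4.

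CACGTG was present for 12 of the 31 members with a window, 38.7%, against 8.09% of 27025 genes with a window of the same length. GAGGAAG was present for 8 of 31, 25.8%, against 15.4% of genes. Member windows had a median GC content of 56.7%, beside 52.7% over all windows, and GC content was not matched in these shares. Members with CACGTG had a median log2 change after LPS in wild type of 0.25, and those without it 0.53. In knockout-labelled libraries these were 0.26 and 0.37. For GAGGAAG the medians were 0.80 with and 0.40 without in wild type, and 0.61 and 0.31 in knockout-labelled libraries. These are descriptions of letters in a window, with no test.

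Cysteine proteases held the largest changes: 8 of the 9 were higher after LPS in each genotype. Ctsc encodes cathepsin C (ENSMUSG00000030560, chr7:88278085-88310888, plus strand), a dipeptidyl peptidase that activates the granule serine proteases of leukocytes. Its lowest, median and highest levels were 3.03, 5.39 and 7.49 CPM in wild type mice after PBS and 20.6, 24.7 and 31.1 CPM after LPS. In knockout-labelled libraries they were 2.89, 5.74 and 7.40 CPM after PBS and 13.1, 17.4 and 23.1 CPM after LPS. LPS and PBS groups did not overlap in either genotype, and the change was 4.71-fold (log2 2.24 ± 0.17, edgeR adjusted p = 4.31e-14) in wild type and 3.36-fold (log2 1.75 ± 0.19, adjusted p = 7.37e-10) in the other genotype.

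Ctss, encoding cathepsin S (ENSMUSG00000038642, chr3:95526786-95556403, plus strand), cuts the invariant chain from MHC class II molecules in antigen-presenting cells and stays active at neutral pH. Its promoter window, shown with those above, holds a GAGGAAG match. After PBS its lowest, median and highest levels were 62.3, 69.0 and 83.1 CPM in wild type and 50.1, 56.5 and 68.2 CPM in knockout-labelled libraries. After LPS they were 200.1, 229.8 and 254 CPM and 208, 217 and 242 CPM. All mice given LPS stood far above all mice given PBS, by 3.17-fold in wild type (log2 1.67 ± 0.07, edgeR adjusted p = 1.66e-23) and 3.80-fold in knockout-labelled libraries (log2 1.93 ± 0.07, adjusted p = 1.01e-24). It was the member with the smallest adjusted p in each genotype.

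Ctsh, encoding the aminopeptidase cathepsin H (ENSMUSG00000032359, chr9:90054152-90076089, plus strand), rose in both genotypes. Wild type mice had a lowest, median and highest level of 8.0, 12.5 and 14.7 CPM after PBS and 34.1, 37.8 and 45.9 CPM after LPS. The libraries labelled knockout had 9.35, 9.90 and 11 CPM and 27.8, 33.6 and 40.2 CPM. The changes were 3.35-fold (log2 1.74 ± 0.11, edgeR adjusted p = 1.06e-16) and 3.38-fold (log2 1.76 ± 0.12, adjusted p = 1.1e-15), with no overlap between LPS and PBS groups, and they differed by 0.01 ± 0.17 on the log2 scale.

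Ctsz (ENSMUSG00000016256, chr2:174427493-174439039, minus strand) encodes cathepsin Z, a carboxypeptidase of myeloid cells. Its lowest, median and highest levels went from 32.0, 33.8 and 46.9 CPM to 79.9, 92.5 and 114 CPM in wild type. In knockout-labelled libraries they went from 33.4, 36 and 43.3 CPM to 68.6, 81.9 and 91.7 CPM. The groups did not overlap, with changes of 2.61-fold (log2 1.38 ± 0.09, edgeR adjusted p = 7.09e-17) and 2.21-fold (log2 1.14 ± 0.09, adjusted p = 1.22e-13). In wild type after PBS, replicate 1 stood above the other 5 mice.

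Ctsl (ENSMUSG00000021477, chr13:64359337-64370890, minus strand) encodes cathepsin L, a broad endopeptidase. It had a lowest, median and highest level of 63.6, 79.0 and 84.4 CPM after PBS and 118, 129.5 and 154 CPM after LPS in wild type. The libraries labelled knockout held 70.7, 79.0 and 87.9 CPM and 107, 125 and 148 CPM. LPS raised it 1.72-fold in wild type (log2 0.78 ± 0.07, edgeR adjusted p = 1.89e-11) and 1.58-fold in the other genotype (log2 0.66 ± 0.08, adjusted p = 3.66e-09), without overlap in either.

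The other 4 cysteine proteases moved less. Ctsb (cathepsin B, the endopeptidase and carboxypeptidase also released from damaged lysosomes) averaged 234 ± 18.3 CPM after PBS and 324 ± 26.1 CPM after LPS in wild type (SD, n = 6), a change of 1.38-fold, and rose 1.24-fold in knockout-labelled libraries. Lgmn (legumain, which cuts after asparagine and processes cathepsins) rose 1.6-fold and 1.51-fold. Ctso (cathepsin O) rose 1.47-fold in wild type and had a log2 fold change of 0.37 ± 0.13 (edgeR adjusted p = 0.0556) in the other genotype. Ctsf (cathepsin F, mutated in an adult-onset storage disease) was the one not called in wild type (log2 0.13 ± 0.07, adjusted p = 0.198), and it was called in knockout-labelled libraries (log2 0.21 ± 0.07, adjusted p = 0.0386). The latter call was lost without any 1 of 7 libraries, replicates 1, 2, 5 and 6 given PBS and 1, 3 and 6 given LPS, with adjusted p from 0.0508 to 0.133. It was also lost without a filter on low counts (edgeR adjusted p = 0.117) and with DESeq2 (adjusted p = 0.0741).

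Among the aspartic and serine proteases, Ctsd and Ctsa rose in both genotypes and Tpp1 was called in neither. Ctsd encodes cathepsin D (ENSMUSG00000007891, chr7:142375911-142388038, minus strand), the main aspartic endopeptidase of the lysosome, whose loss causes a congenital neuronal ceroid lipofuscinosis, and the window printed for it holds CACGTG at 2 places. Its lowest, median and highest levels were 259.9, 277 and 283 CPM after PBS and 484, 581 and 655 CPM after LPS in wild type. They were 259.7, 289.6 and 313 CPM and 409, 465 and 485 CPM in knockout-labelled libraries. Mice given LPS were above all mice given PBS in each genotype, by 2.06-fold in wild type (log2 1.05 ± 0.06, edgeR adjusted p = 4.79e-19) and 1.57-fold in the other genotype (log2 0.65 ± 0.06, adjusted p = 4.87e-12). Ctsa, the protective protein that stabilises β-galactosidase and neuraminidase, rose 1.63-fold and 1.40-fold. Tpp1, the tripeptidyl peptidase lost in late infantile ceroid lipofuscinosis, had log2 fold changes of 0.11 ± 0.06 and 0.14 ± 0.07 (adjusted p = 0.235 and 0.18).

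**Figure D2:**
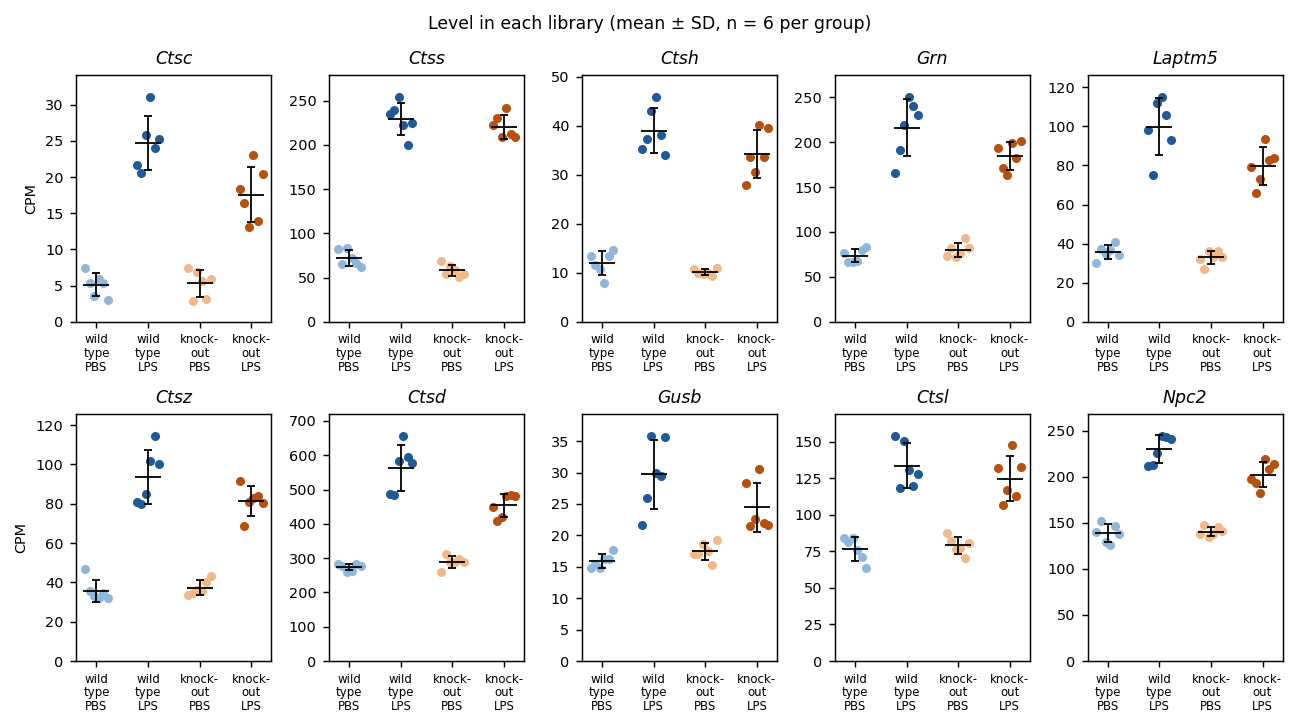
Level of each of the 10 genes with the largest called LPS changes (y axis, CPM from 0) in each of the 24 libraries, by group (x axis); points are mice, and bars are the group mean ± SD (n = 6). In wild type and in knockout-labelled libraries, the points after LPS lie above all points after PBS for each of the 10 genes.

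Glycosidases divided evenly: Gusb, Man2b1, Hexa and Naglu rose in both genotypes, and Glb1, Neu1, Gaa and Gla were called in neither. Gusb encodes β-glucuronidase (ENSMUSG00000025534, chr5:129989011-130003049, minus strand), which removes glucuronic acid from glycosaminoglycans. Wild type mice had a lowest, median and highest level of 14.7, 15.8 and 17.7 CPM after PBS and 21.6, 29.7 and 35.8 CPM after LPS. In knockout-labelled libraries these were 15.3, 17.3 and 19.2 CPM and 21.6, 22.4 and 30.5 CPM. The change was 1.91-fold in wild type (log2 0.93 ± 0.11, edgeR adjusted p = 6.86e-09) and 1.42-fold in the other genotype (log2 0.50 ± 0.11, adjusted p = 0.00135), with no overlap between LPS and PBS groups.

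Man2b1 (lysosomal α-mannosidase) rose 1.59-fold and 1.64-fold in wild type and in knockout-labelled libraries, and Naglu, an enzyme of heparan sulfate breakdown, rose 1.57-fold and 1.6-fold. Hexa, the α subunit of the hexosaminidase that degrades GM2 ganglioside, rose 1.40-fold and 1.30-fold. The 4 glycosidases not called had log2 fold changes in wild type of 0.17 ± 0.14 for Glb1 (β-galactosidase), 0.08 ± 0.06 for Neu1 (sialidase), 0.07 ± 0.06 for Gaa (acid α-glucosidase) and 0.15 ± 0.16 for Gla (α-galactosidase A). In knockout-labelled libraries their values lay between -0.13 for Gla and 0.05 for Gaa. Gla, at 8.61 ± 2.09 CPM in wild type mice after PBS, and Glb1, at 12.8 ± 1.73 CPM, were among the members with the fewest counts and the widest errors.

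Of the 4 lipid enzymes and activators, 1 was called. Lipa, the acid lipase that releases cholesterol from its esters, averaged 14.4 ± 2.79 CPM after PBS and 18.8 ± 1.86 CPM after LPS in wild type (SD, n = 6), a log2 change of 0.39 ± 0.13 (edgeR adjusted p = 0.0262), and knockout-labelled libraries had 0.15 ± 0.13 (adjusted p = 0.57). The wild type call was lost without any 1 of 5 wild type libraries, replicates 2 and 4 given PBS and 2, 4 and 6 given LPS, with adjusted p from 0.0505 to 0.0941. It was also lost with DESeq2 (adjusted p = 0.0507). Psap (the precursor of the saposins), Asah1 (acid ceramidase) and Ppt1 (the thioesterase lost in infantile ceroid lipofuscinosis) had log2 fold changes of 0.12 ± 0.05, 0.11 ± 0.11 and 0.13 ± 0.06 in wild type. In knockout-labelled libraries these 3 values were 0.00 ± 0.05, 0.22 ± 0.11 and 0.06 ± 0.06, and none passed the test.

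Of the pair of proteins that export cholesterol from the lysosome, Npc2 was called in both genotypes and Npc1 in neither. Npc2 (ENSMUSG00000021242, chr12:84754562-84773152, minus strand), the soluble carrier, had a lowest, median and highest level of 126, 139 and 152 CPM after PBS and 212, 234 and 244 CPM after LPS in wild type. In knockout-labelled libraries it had 134, 139 and 147 CPM and 183, 203 and 219 CPM. It rose 1.66-fold (log2 0.73 ± 0.05, edgeR adjusted p = 5.2e-15) and 1.44-fold (log2 0.53 ± 0.05, adjusted p = 2.27e-10) without overlap. Npc1, the membrane protein that takes cholesterol over from NPC2, had log2 changes of -0.04 ± 0.06 (adjusted p = 0.688) and -0.07 ± 0.06 (adjusted p = 0.608).

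Among the 7 membrane proteins, 4 were higher after LPS in wild type and 3 in knockout-labelled libraries. Laptm5 (ENSMUSG00000028581, chr4:130913125-130936141, plus strand), a lysosomal transmembrane protein of haematopoietic cells that lowers antigen receptor levels, changed most. Wild type mice had a lowest, median and highest level of 30.0, 35.8 and 40.7 CPM after PBS and 75.1, 102 and 115 CPM after LPS. In knockout-labelled libraries the levels were 27.2, 33.1 and 36.4 CPM and 65.9, 81.0 and 93.7 CPM. LPS groups lay above PBS groups throughout, by 2.80-fold (log2 1.49 ± 0.09, edgeR adjusted p = 5.98e-18) and 2.43-fold (log2 1.28 ± 0.09, adjusted p = 6.09e-15).

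Lamp2, needed for chaperone-mediated autophagy in its LAMP2A form, rose 1.32-fold in wild type and 1.25-fold in the other genotype. Lamp1 (ENSMUSG00000031447, chr8:13159161-13175338, plus strand), the most used marker of lysosomal membranes, had a lowest, median and highest level of 389, 413 and 434 CPM after PBS and 444, 520.1 and 576 CPM after LPS in wild type, a change of 1.25-fold (edgeR adjusted p = 1.18e-06). In knockout-labelled libraries it had 412, 439 and 456 CPM and 443, 458 and 479 CPM, which overlapped, and a log2 change of 0.07 ± 0.05 (adjusted p = 0.475). Laptm4a, a relative of Laptm5 found in most cell types, rose 1.16-fold in wild type and had 0.05 ± 0.05 on the log2 scale in the other genotype (adjusted p = 0.58). Mcoln1, the lysosomal calcium channel TRPML1, averaged 20.2 ± 1.52 CPM after PBS and 25.2 ± 1.5 CPM after LPS in knockout-labelled libraries (adjusted p = 0.0136), a call lost without a filter on low counts (adjusted p = 0.0926) and with DESeq2 (adjusted p = 0.0651), and 19.4 ± 1.41 and 21.4 ± 1.40 CPM in wild type (adjusted p = 0.283). Scarb2, the receptor that carries glucocerebrosidase to the lysosome, and Cln3, mutated in juvenile ceroid lipofuscinosis, were called in neither, with log2 fold changes in wild type of 0.13 ± 0.05 and 0.13 ± 0.13.

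Grn encodes progranulin (ENSMUSG00000034708, chr11:102430315-102437048, plus strand), a secreted and lysosomal protein whose cleavage products regulate hydrolases and whose loss causes frontotemporal dementia or a ceroid lipofuscinosis. Its lowest, median and highest levels were 66.7, 72.3 and 83.1 CPM after PBS and 166, 225 and 251 CPM after LPS in wild type. In knockout-labelled libraries they were 72.4, 79.4 and 93.8 CPM and 164, 188 and 202 CPM. The groups did not overlap, with changes of 2.98-fold (log2 1.57 ± 0.08, edgeR adjusted p = 1.22e-20) and 2.31-fold (log2 1.21 ± 0.08, adjusted p = 1.56e-16).

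Tfeb (ENSMUSG00000023990, chr17:47737030-47792419, plus strand), a transcription factor that switches on many lysosomal genes when it enters the nucleus, is controlled largely by phosphorylation, which transcript counts do not measure. Its lowest, median and highest levels were 13.5, 16.1 and 17.7 CPM after PBS and 16.3, 23.4 and 26.6 CPM after LPS in wild type, a change of 1.45-fold (edgeR adjusted p = 0.00329) in groups that overlapped. In knockout-labelled libraries it had 10.4, 20.8 and 26.5 CPM and 17.6, 19.2 and 23.6 CPM, with a log2 change of 0.02 ± 0.13 (adjusted p = 0.97). The 6 mice labelled knockout and given PBS were more widely spread than any other group, from the lowest to nearly the highest level of all 24 libraries.

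The hemisphere is a mixture of cell types, in which fewer cells of a type and less RNA per cell cannot be told apart. Microglial markers moved in the same direction as the lysosomal genes: 9 of 12 were higher and 1, Siglech, was lower after LPS in wild type, and 8 were higher in knockout-labelled libraries. Their summed level was 257.8 to 310.3 CPM after PBS and 493.8 to 642.1 CPM after LPS in wild type, and 257 to 285.5 and 418.4 to 557.9 CPM in knockout-labelled libraries, ratios of means of 2.00 and 1.78. All 8 tested of 10 markers of monocytes and border macrophages were higher in each genotype, from 14.51 to 31.2 CPM after PBS to 165.8 to 279.8 CPM after LPS in wild type. Of the tested ones, Ccr2 had 8 and 14 counts over the PBS groups, wild type first, Ms4a6c 34 and 38, Cd14 38 and 35 and Cd163 43 and 33. These markers passed the filter on low counts through the LPS groups, so their direction was built into their being tested. In knockout-labelled libraries the summed monocyte level went from 17.48 to 26.5 CPM to 124.7 to 179.3 CPM.

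Neutrophil markers, 5 tested of 8, were all higher too, with summed levels of 7.738 to 18.28 CPM after PBS and 121.9 to 693.3 CPM after LPS in wild type. In knockout-labelled libraries these were 8.767 to 41.51 CPM and 89.1 to 385 CPM. Of the tested markers, Mmp8 had 5 and 3 counts over the PBS groups, Retnlg 1 and 8 and Ngp 39 and 40, wild type first. These markers passed the filter on low counts through the LPS groups, so their direction was built into their being tested. Among the markers not tested, Clec4e of the monocyte list had 0 counts in both PBS groups. Cxcr2 of the neutrophil list had 0 counts in wild type after PBS. Over the LPS groups, wild type first, Clec4e had 22 and 13 counts and Cxcr2 38 and 12. Ly6g of the neutrophil list, also not tested, had 1 and 2 counts over the PBS groups and 6 and 1 over the LPS groups, wild type first. Camp of that list had 14 and 21 counts, then 85 and 105, and Ly6c2 of the monocyte list 9 and 4, then 29 and 18. Endothelial markers went from 259.8 to 287.6 CPM to 518.9 to 618.7 CPM in wild type, with 8 of 8 higher, and 7 of 8 were higher in knockout-labelled libraries. Neuronal markers had ratios of 0.868 and 0.897, with 4 and 2 of 8 lower. Oligodendrocyte markers had ratios of 0.887 and 0.92, with 4 of 8 lower and 2 higher in each genotype, and astrocyte markers 1.07 and 1.03, with 5 and 4 of 8 higher and 1 lower in each. The part of these cell types in the lysosomal changes was not tested.

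**Figure D3:**
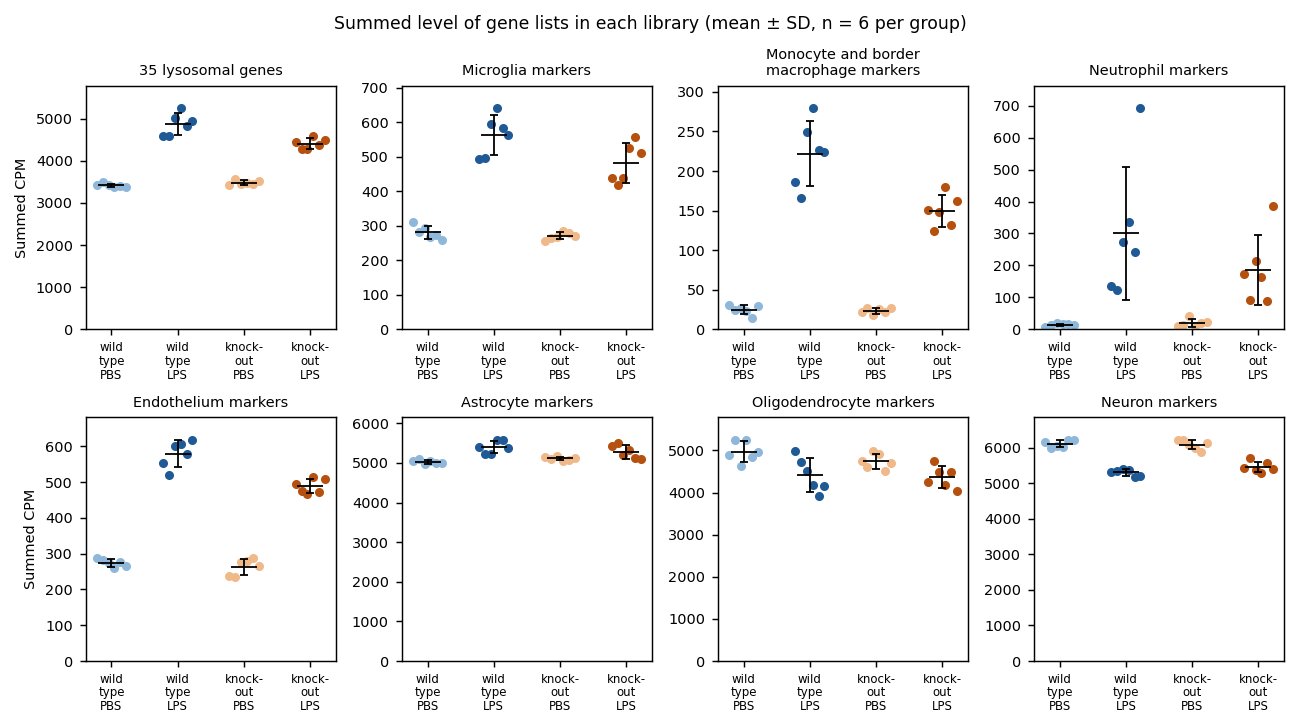
Summed level (y axis, CPM from 0) of the 35 lysosomal genes and of each list of cell type markers in each library, by group (x axis); points are mice, and bars are the group mean ± SD (n = 6). The lysosomal sum and the sums for microglia, monocytes and border macrophages, neutrophils and endothelium lie higher in each LPS group than in the matching PBS group.

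After PBS, no lysosomal gene was called between the genotypes. By edgeR, 0 of the 35 were higher and 0 were lower in knockout-labelled libraries than in wild type, beside 0.0417% higher and 0.0904% lower among all genes tested, and DESeq2 also called 0. At an unadjusted p under 0.05 there were 3 (Ctss, Neu1 and Tfeb), beside 8.73% of all genes tested. Ctss came closest, at -0.32 ± 0.08 on the log2 scale (edgeR adjusted p = 0.0723), with medians of 69.0 CPM in wild type and 56.5 CPM in knockout-labelled libraries and ranges that overlapped. It passed without replicate 6 of wild type after PBS, replicate 5 of wild type after LPS or replicate 1 labelled knockout after PBS, with adjusted p from 0.0179 to 0.0458. With any other single library left out it did not pass, and its edgeR adjusted p reached 0.385. No member had groups that did not overlap between the genotypes, after PBS or after LPS. Among all genes tested, knockout-labelled libraries lay wholly above wild type for 0.229% and wholly below for 0.188% after PBS, and for 0.257% and 0.389% after LPS.

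After LPS, 2 of the 35 were lower in knockout-labelled libraries than in wild type and 0 were higher, beside 0.786% lower and 0.264% higher among all genes tested. Ctsd was at -0.31 ± 0.06 on the log2 scale (edgeR adjusted p = 0.00114) and Laptm5 at -0.32 ± 0.08 (adjusted p = 0.0343). Ctsd stood at 408.6 to 484.9 CPM in knockout-labelled libraries, and in wild type replicates 1 and 2 stood at 487.3 and 483.7 CPM while the other 4 mice had 578.6 to 655.2 CPM. Laptm5 stood at 65.9 to 93.7 CPM in knockout-labelled libraries and at 75.1 to 115.0 CPM in wild type, with replicate 2 the lowest of the wild type mice. Of the 35, 29 had a log2 fold change below 0, against 51.3% of all genes tested, and 13 had an unadjusted p under 0.05, 12 lower and 1 higher, against 11.4%. Their median was -0.10, and DESeq2 called 3 lower and 0 higher. Mcoln1 had the largest value above 0, 0.23 ± 0.09 (adjusted p = 0.249).

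The Ctsd call held without any 1 library, but the Laptm5 call was lost without any 1 of 6, wild type replicates 3, 4 and 5 or replicates 1, 2 and 3 labelled knockout, all given LPS, with adjusted p from 0.0677 to 0.148. The count of lower members ran from 1 to 7 when each library was left out in turn, and was 6 without wild type replicate 1, 7 without replicate 2 and 1 without replicates 3, 4 or 5, all given LPS. Without wild type replicates 1 and 2 after LPS together, a setting chosen with earlier results of these data known, it was 9: Ctsd, Laptm5, Ctsc, Ctsz, Gusb, Npc2, Lamp1, Laptm4a and Grn. Over all genes the calls of that setting were 177 higher and 384 lower of 14684, against 38 and 113 with all libraries. In that setting Ctsd was at -0.41 (edgeR adjusted p = 4.52e-07), Laptm5 at -0.41 (adjusted p = 0.000845) and Grn at -0.34 (adjusted p = 0.000681). Among markers after LPS, 2 of 12 for microglia were lower in knockout-labelled libraries (Cx3cr1 and Sall1), as were 1 of 8 for monocytes, 3 of 8 for endothelium and 2 of 8 for astrocytes. In the microglial list 2 markers lay above 0, up to 0.58 for Siglech, neither of which passed. The 5 tested neutrophil markers lay below 0, with a median of -0.52, and edgeR called 0 of them, with 2 at an unadjusted p under 0.05. Their part in the lower Ctsd and Laptm5 was not tested.

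**Figure D4:**
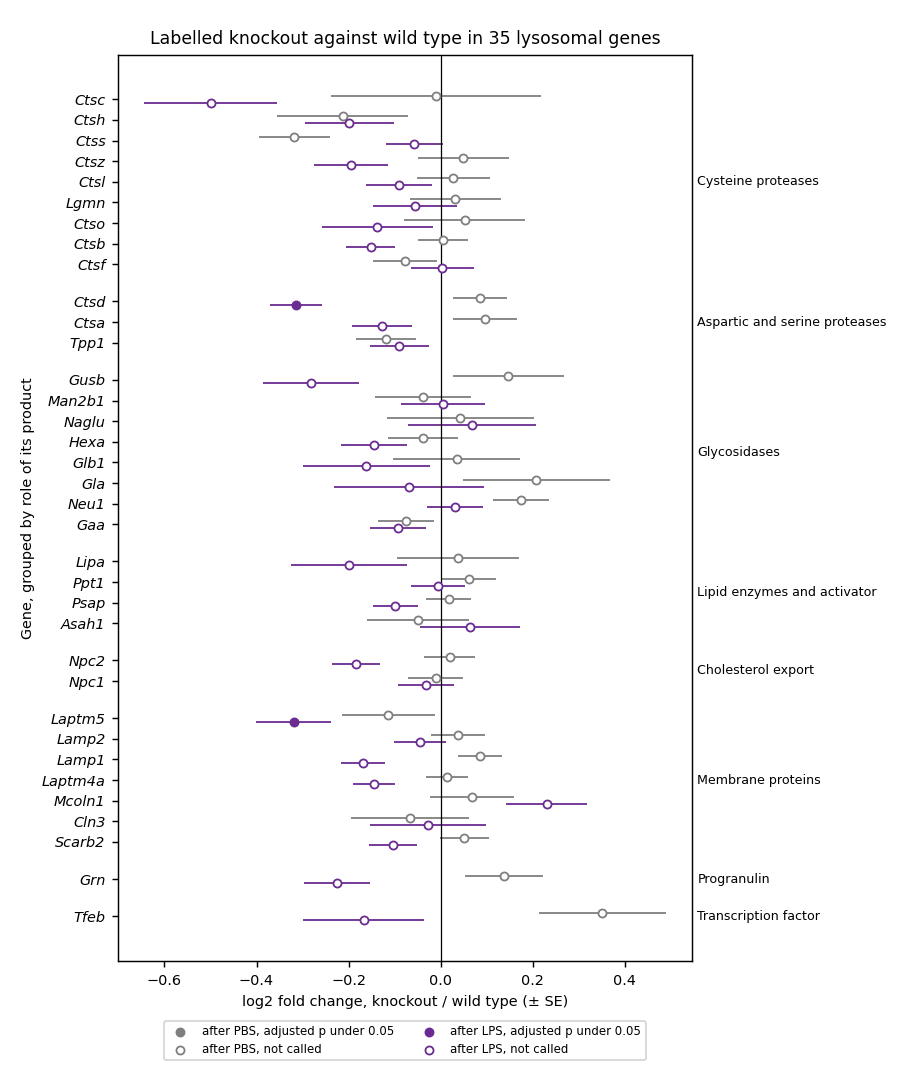
Log2 fold change of knockout-labelled libraries against wild type (x axis, ± SE) for the 35 genes by role (y axis), after PBS and after LPS; filled points have an adjusted p under 0.05. After LPS 29 of 35 points lie left of 0, and Ctsd and Laptm5 are the filled ones.

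The interaction subtracts the wild type response to LPS from that of knockout-labelled libraries and so tests directly if the response differed. By edgeR, 0 of the 35 passed, beside 0.00695% of all genes tested, which is 1 gene. At an unadjusted p under 0.05 there were 11, beside 9.78% of all genes tested, and 26 of the 35 were below 0, beside 50.5%, with a median of -0.14. DESeq2 called 2, Ctsd and Lamp1, both lower. Ctsd had the smallest adjusted p, at -0.40 ± 0.08 on the log2 scale (edgeR adjusted p = 0.053), followed by Lamp1 at -0.25 ± 0.07 (adjusted p = 0.229) and Grn at -0.36 ± 0.11 (adjusted p = 0.277).

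Ctsc was at -0.49 ± 0.27 and Gusb at -0.43 ± 0.16 in this comparison, and neither passed. Tfeb, the transcription factor, was at -0.52 ± 0.19 (edgeR adjusted p = 0.357). Ctss lay in the opposite direction, at 0.26 ± 0.10 (adjusted p = 0.357), and Ctsh near 0. The Ctsd interaction passed without wild type replicate 1 or 2 given LPS, with adjusted p from 0.00818 to 0.0487 over all passing runs. It also passed without replicate 1 given PBS or replicate 4 given LPS of knockout-labelled libraries. It did not pass with any other single library left out, and its edgeR adjusted p then reached 0.195. Without wild type replicates 1 and 2 after LPS together the Ctsd interaction was -0.49 (edgeR adjusted p = 8.32e-05). Lamp1, Grn and Gusb passed as well, at -0.32, -0.48 and -0.56. That setting leaves out the wild type LPS libraries lowest for these genes, so it favours values below 0 by construction. Over all genes, 84 were then higher and 165 lower of 14684, against 0 and 1 with all libraries.

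Ctsd and Ctss lay on opposite sides of 0 in the interaction, and neither passed by edgeR. Between the genotypes after LPS both were below 0, at -0.31 for Ctsd and -0.06 for Ctss. After PBS they were at 0.085 and -0.32. Within a library they can be read as the ratio of their counts, a comparison chosen after their values were seen and given with no test. The lowest, median and highest ratio of Ctsd to Ctss counts were 3.13, 3.96 and 4.43 in wild type after PBS and 2.02, 2.44 and 2.97 after LPS. In knockout-labelled libraries they were 3.81, 5.13 and 5.96 after PBS and 1.78, 2.02 and 2.30 after LPS. LPS and PBS groups did not overlap within a genotype, while the genotypes overlapped after each injection.

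Reads were assigned to genes with a strand setting that is not given in the sources used here. Of the 35 genes, 12 share exon bases with another gene of the annotation, 10 of them with a gene on the opposite strand and 3 on the same strand. If strand was not used, reads in the bases shared with an opposite-strand partner cannot be assigned to the one or the other. Ctsl has such a partner in Gm47123, which holds 5 counts over all 24 libraries beside 9513 for Ctsl. Lamp1 has one in Grtp1, with 231 counts beside 41711, and Grn shares 68 bases with Fam171a2, with 11782 counts beside 12584. Ctsb shares 774 bases with Fdft1, with 2456 counts beside 24912. Ctsa shares 495 bases with Pltp, with 3149 counts beside 11051. Ctsd shares 808 exon bases with Gm49369 on its own strand, and Gm49369 is listed with 0 counts in all 24 libraries.

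The rest of the lysosome was read from 107 other genes in 9 lists, of which 98 were tested. After LPS, 22 were higher and 3 lower in wild type, with a median log2 change of 0.06, beside 10.9% higher and 7.12% lower among all genes tested. Knockout-labelled libraries had 15 higher and 5 lower, with a median of 0.05, beside 7.05% and 3.82%. A count of 1 in a list of 12 or 14 genes is near those shares.

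Among 9 other proteases and cystatins, 3 were higher in wild type and 2 in knockout-labelled libraries. Cst7, the cystatin F inhibitor that controls cathepsin C in leukocytes, had 5 counts over the 6 libraries of each PBS group and 95 and 61 counts over those of the LPS groups, wild type first, with a log2 change of 4.18 ± 0.46 (edgeR adjusted p = 7.99e-10) and 3.45 ± 0.51 (adjusted p = 1.25e-06). With so few counts after PBS, Cst7 passed the filter on low counts through the LPS groups, which fixes its direction. Cst3, cystatin C, the secreted inhibitor of cysteine proteases, rose 1.31-fold in wild type and 1.15-fold in the other genotype. After LPS Cst3 was also 0.849 of the wild type level in knockout-labelled libraries (adjusted p = 0.023), the one gene of these lists called between the genotypes. Prcp, a prolyl carboxypeptidase, had log2 changes of 0.66 ± 0.17 and 0.07 ± 0.18.

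Other glycosidases and activators held 4 of 11 higher in wild type and 3 in knockout-labelled libraries, among them Fuca1, a fucosidase (1.25-fold and 1.27-fold), and Gm2a, the GM2 activator, at log2 0.29 ± 0.07 and 0.19 ± 0.07. Of 6 other lipases and phosphatases, 3 and 2 were higher, led by Acp5, the tartrate-resistant acid phosphatase of macrophages and osteoclasts, which had 12 and 10 counts over the PBS groups and 77 and 62 over the LPS groups, wild type first. Of 16 other membrane proteins, 5 and 4 were higher and 1 was lower in each (Mfsd8 in wild type, Laptm4b in knockout-labelled libraries). Cd68, the macrophage relative of the LAMPs, rose 3.73-fold and 2.99-fold, Slc11a1, the phagosomal metal transporter, 5.16-fold and 2.37-fold, and the tetraspanin Cd63 1.67-fold and 1.28-fold. Slc11a1 had 15 and 24 counts over the PBS groups, wild type first. Like Acp5, it passed the filter on low counts through the LPS groups.

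The proton pump and the genes of lysosomal sorting and biogenesis held calls in both directions. Of 18 V-ATPase genes, 4 were higher and 1 lower in wild type, and 2 higher and 2 lower in knockout-labelled libraries. Tcirg1, the a3 subunit of osteoclasts and macrophages, rose 1.71-fold and 1.45-fold, while Atp6v1a, the catalytic subunit, was lower in both, at -0.13 and -0.13, and Atp6ap2 was lower in knockout-labelled libraries, at -0.15. Atp6v1a, Atp6ap2, M6pr, Rraga, Mfsd8 and Laptm4b are named because they were the called genes of a count, after their values were seen. Of 12 sorting genes, 1 was higher in wild type, Nagpa, the enzyme that uncovers the mannose 6-phosphate tag (0.63 ± 0.11 on the log2 scale), and 1 in knockout-labelled libraries, M6pr, the cation-dependent receptor of that tag (0.32 ± 0.10). Of 14 genes of lysosomal biogenesis and nutrient sensing, 1 was lower in wild type and 2 in knockout-labelled libraries. Rragd, a small GTPase that recruits mTORC1, was lower in both, at -0.26 ± 0.08 and -0.26 ± 0.08, and its relative Rraga was lower in the latter, at -0.23 ± 0.06. Of 4 further ceroid lipofuscinosis genes, 1 was higher in wild type, Cln6, at 0.65 ± 0.14, and it was at 0.26 ± 0.15 in knockout-labelled libraries.

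**Figure D5:**
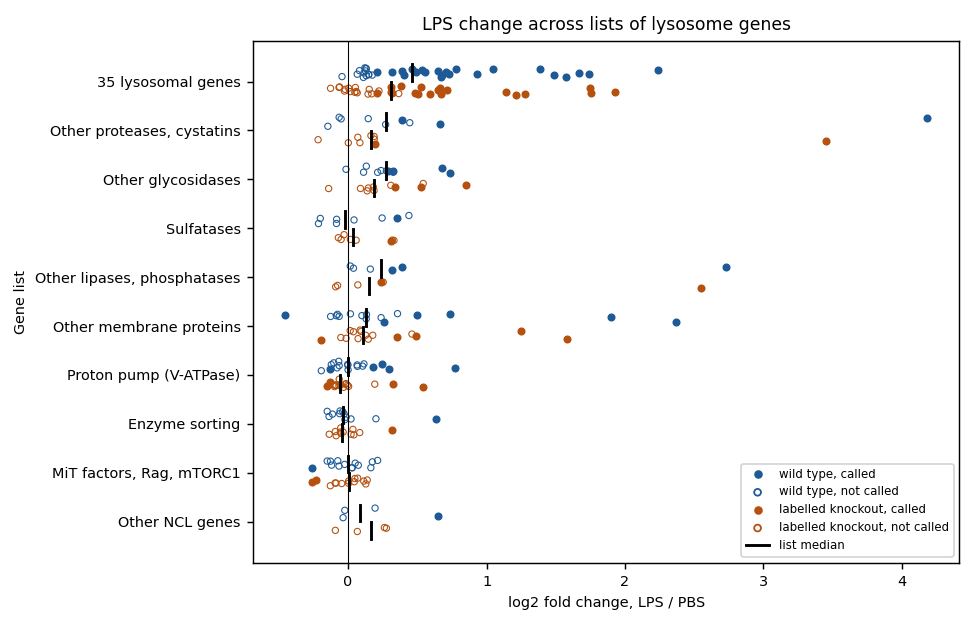
Log2 fold change after LPS (x axis) of each tested lysosomal gene in wild type and in knockout-labelled libraries, by list (y axis); points are genes, filled where the adjusted p is under 0.05, and vertical bars are list medians. The medians of the 35 genes, 0.46 and 0.31, lie to the right of those of the other lists.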

How the data were processed

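The deposited values are whole-number counts of 3′ tags per gene, made by the authors and not normalised. The submitters' processing notes list Subread 2.0.0 with featureCounts, STAR 2.7.3a, DESeq2 1.26.0, bcl2fastq and R 3.6.1, and name build mm10 (GRCm38). Not given in the sources used here are the annotation release, the strand setting, how multiply matching reads were handled and any PCR duplicate removal.

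All 24 libraries entered 1 fit with edgeR 4.0.16 (limma 3.58.1, R 4.3.3): a mean per group, TMM scaling, filterByExpr with a minimum count of 10, and the quasi-likelihood F test on 20 residual degrees of freedom. In each of 5 comparisons the Benjamini-Hochberg adjustment ran over the 14380 genes tested, and calls needed an adjusted p under 0.05. The fit was tested on simulated data. CPM are counts per 1e+06 of the TMM-scaled library size, and their precision covers counting error only. The labels number 6 libraries per group and do not state that each is a separate animal. The p-values therefore set group differences against a spread estimated from these samples, which may be partly technical. Log2 fold changes carry a standard error (SE) worked back from the test, as the absolute log2 fold change over the square root of the F statistic. Levels carry their SD.

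The members and gene lists were chosen with earlier results of these data known. Values in each group are given for members called between genotypes or in the interaction and for the 10 with the largest called LPS change. Of the other lists, the 3 genes with the smallest p for LPS in wild type, and any called between genotypes, may be named. Alternatives were other scalings, no filter, DESeq2 1.42.0, a replicate block, fits of the compared groups only and libraries left out. The table holds 0 columns of other samples. Promoter windows came from RefSeq on GRCm38.p6, and gene positions from the annotation on GRCm38. Some genes of the other lists are not reported here.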

Additional observations from a re-analysis of the deposited data

Results flagged for a closer look

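Of 140 groups of 6 libraries examined, 4 groups for each of the 35 genes, 3 held a sample that stood apart from the other 5 by more than Dixon's critical share of the group's range. Chance alone gives about 1 in 20 such groups. Replicate 1 labelled knockout after PBS had the lowest Ctsf level, 44.4 CPM, beside 51.2 to 55.2 CPM in the other 5 mice, and the Ctsf call for LPS in knockout-labelled libraries was lost without it. Replicate 1 of wild type after PBS had the highest Ctsz level, 46.9 CPM, beside 32.0 to 35.8 CPM. Replicate 6 of wild type after PBS had the lowest Laptm4a level, 357.0 CPM, beside 394 to 411 CPM, and it was the library with the fewest counts, 2340184.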

How the results depend on the processing

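The 43 calls made for single members kept their direction in each alternative run, and all 43 stayed called with DESeq2 size factors, with library size alone and with the replicate block. Without a filter on low counts 2 were lost (Ctsf and Mcoln1), and with the DESeq2 Wald test 3 (Ctsf, Mcoln1 and Lipa). With only the compared groups 1 was lost (Laptm5, edgeR adjusted p = 0.0773), and without wild type replicates 1 and 2 after LPS 1 (Lipa). For LPS the count of members called higher ran from 21 to 24 in wild type and from 18 to 20 in knockout-labelled libraries when each library was left out. The genotype counts moved more. Members lower in knockout-labelled libraries after PBS numbered 1 without a filter and 1 with the replicate block, in place of 0, and 0 to 1 with each library left out. After LPS they numbered 4 without a filter, 6 with the replicate block, 1 with only the compared groups and 9 without wild type replicates 1 and 2, in place of 2, and 1 to 7 with each library left out. Members lower in the interaction numbered 2 without a filter, 2 with the DESeq2 Wald test, 1 with the replicate block and 4 without wild type replicates 1 and 2, in place of 0, and 0 to 2 with each library left out. The setting without wild type replicates 1 and 2 leaves out the libraries lowest for these genes in their group, so it favours lower members by construction. The cause of the other shifts was not tested.

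The labels do not say that a number marks a shared litter or day, and same-numbered libraries of different groups correlated in their deviations from -0.0813 to 0.179 over 36 pairs, with 2 over 0.1, so the replicate block is given only here. Over all genes, calls after PBS between genotypes were 6 higher and 13 lower, against 43 and 45 without a filter, 22 and 17 with the replicate block and 15 and 21 without wild type replicates 1 and 2. After LPS they were 38 and 113, against 97 and 196 without a filter and 71 and 202 with the replicate block and 177 and 384 without wild type replicates 1 and 2. For the interaction they were 0 and 1, against 28 and 39 without a filter, 0 and 11 with DESeq2, 3 and 5 with the replicate block and 84 and 165 without wild type replicates 1 and 2. Depth limits the members with few counts, such as Gla, Naglu and Ctsc, whose errors were the widest.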
